A study of Mus musculus with 12 samples.

Results

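The RNA levels of 10 tetraspanin genes, Tspan7, Tspan8, Tspan12, Tspan18, Cd9, Cd37, Cd53, Cd63, Cd81 and Cd151, were followed in sorted mouse glomerular endothelial cells (GEC). These genes were chosen by name as tetraspanins of endothelium or of leukocytes, and they were chosen with their levels in the sorted cells known. All 10 were present among the 19564 genes measured in at least 1 subpopulation. The mice were C57BL/6 animals, 4 months old, that carried a Tek-Cre transgene and a tdTomato reporter, so that cells with a history of Tek promoter activity fluoresce. Glomeruli were sieved from the renal cortex and digested, and tdTomato positive cells were sorted by brightness into dimtdT and brighttdT GEC. The 4 groups of 3 mice each were wild type dim (WT-dim), Alport dim (AS-dim), wild type bright (WT-bright) and Alport bright (AS-bright), and each mouse gave 1 dim and 1 bright library. AS mice lack Col4a5, a chain of the type IV collagen of the glomerular basement membrane, and are a model of Alport syndrome, a hereditary kidney disease. Both genotypes carried the Cre and the reporter, and no gate on a leukocyte protein is described for the sort. The Tek promoter is also known to be active in part of the blood lineage.

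Tetraspanins are small proteins that cross the cell membrane several times and gather integrins, receptors and proteases into patches of the membrane. Endothelial members tune signals that reach the cell through its partners: TSPAN12 strengthens Norrin signals through the FZD4 receptor, TSPAN18 promotes calcium entry through ORAI1, and CD151 holds laminin-binding integrins, by which glomerular cells attach to their basement membrane. CD37 and CD53 are tetraspanins of white blood cells, while CD9, CD63 and CD81 are made by many cell types.

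Tspan7 had the highest and Cd53 the lowest level of the members in bright relative to dim cells in WT and AS, so the 250 bases before the start of each are shown, from RefSeq on GRCm38.p6. Tspan7 (ENSMUSG00000058254) is a protein-coding gene on the plus strand at chrX:10485158-10596605 and its upstream window is chrX:10484866-10485115. Cd53 (ENSMUSG00000040747) is a protein-coding gene on the minus strand at chr3:106759921-106790149 and its upstream window is chr3:106790150-106790399. Neither window overlaps an annotated exon. Capitals mark the GC box letters CCGCCC.
Tspan7: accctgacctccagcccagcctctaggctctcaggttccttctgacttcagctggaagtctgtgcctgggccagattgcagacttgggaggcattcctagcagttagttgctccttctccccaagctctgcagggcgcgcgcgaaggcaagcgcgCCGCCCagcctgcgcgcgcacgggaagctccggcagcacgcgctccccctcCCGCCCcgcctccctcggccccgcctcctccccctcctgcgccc
Cd53: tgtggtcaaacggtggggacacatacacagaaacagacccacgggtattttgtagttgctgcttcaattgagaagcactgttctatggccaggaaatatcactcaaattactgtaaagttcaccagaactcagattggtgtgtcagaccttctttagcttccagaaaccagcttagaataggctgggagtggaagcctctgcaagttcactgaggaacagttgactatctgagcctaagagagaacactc

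The Tspan7 window held 2 GC boxes, which begin 95 and 44 bases before the start used for the window, and 69.2% of its bases were G or C. That start lies upstream of the gene span given above for Tspan7. The Cd53 window was 45.2% G or C and held none of the 5 motifs searched on both strands. The GC box was searched as GGGCGG, present in 32.7% of 32851 windows of 250 bases from the same set. The ETS motif was searched as CCGGAA, present in 12% of the windows. The purine-rich ETS motif that PU.1 binds was searched as AGGAAG, present in 29.5%, and it shares its core letters with the ETS motif. The TATA motif was searched as TATAAA, present in 12.4%. The E box was searched as CACGTG, present in 6.02%. The median of all windows was 52.4% G or C. Of the 10 genes, 9 had a window there (not Tspan18). The GC box was found in Cd9, Cd37, Cd81, Cd151 and Tspan7, of the endothelial and of the leukocyte kind alike.

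Counts on genes were 11440169 to 13923267 per dim and 13674045 to 15074909 per bright library. Levels below are counts scaled by TMM to 1 library size shared by the 12 libraries (CPM). Col4a5, the gene targeted in AS mice, had 771, 439 and 877 counts in the WT-dim and 51, 24 and 17 in the AS-dim libraries. Among the bright libraries, those of WT mice held 158, 69 and 78 counts of it and those of AS mice 43, 104 and 55, so that there its counts did not separate the genotypes. Summed CPM of 12 endothelial markers (Pecam1, Cdh5, Kdr and others) was 751 to 1365 in WT-dim, 232 to 319 in AS-dim, 10822 to 16657 in WT-bright and 16183 to 19047 in AS-bright. Summed CPM of 6 leukocyte markers (Ptprc, Coro1a and others) was 5996 to 10144 in WT-dim and 10329 to 11080 in AS-dim, against 20.7 to 66.7 in WT-bright and 55.7 to 82.7 in AS-bright, and no marker of that list was at 0 in any library. The dim libraries labelled endothelial thus held more leukocyte than endothelial marker RNA, and each dim value below is one of these mixed libraries. Of the leukocyte markers, Coro1a had the largest mean, at 5611 CPM in WT-dim and 7291 in AS-dim. Markers of proximal tubule (6 genes) also differed between the genotypes, at 850 to 3605 CPM in WT-dim, 8.62 to 280 in AS-dim, 268 to 1476 in WT-bright and 42.9 to 291 in AS-bright, with the highest sum of each subpopulation in WT replicate 1. In bulk libraries, fewer cells of a type and less RNA per cell cannot be told apart.

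**Figure D1:**
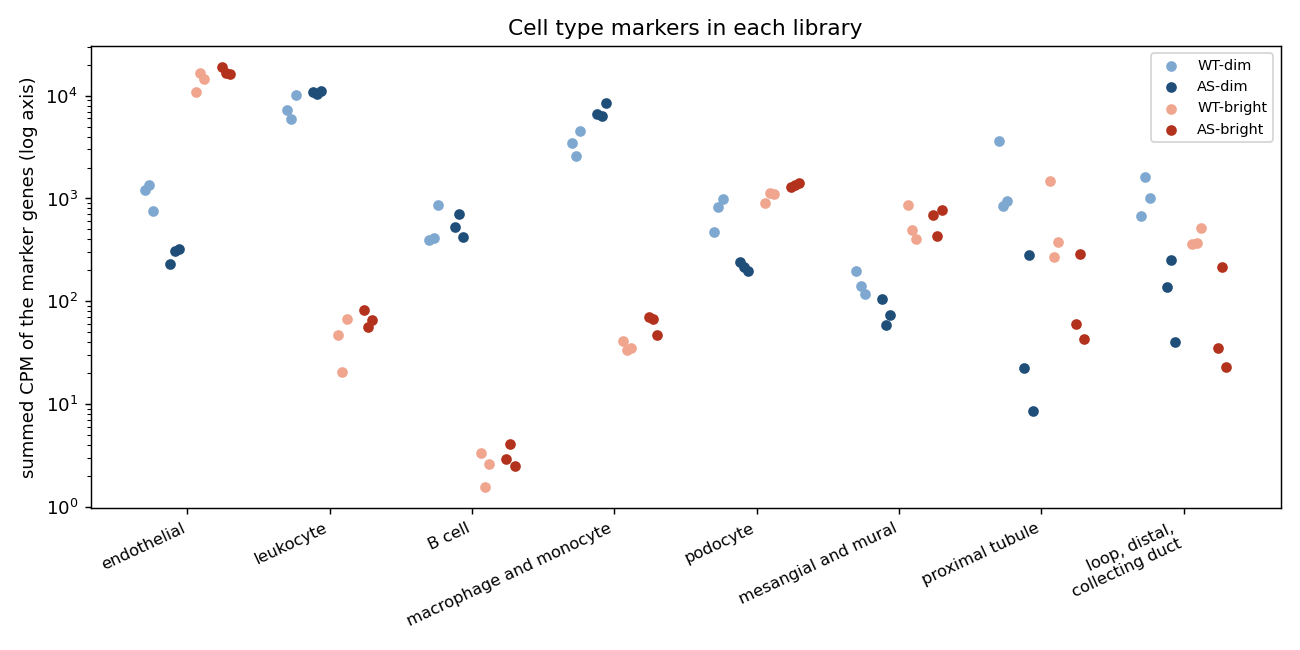
Summed CPM (log axis) of marker genes for 8 cell types in each of the 12 libraries, with the 4 groups in colour and 1 dot per library. Leukocyte marker sums lie above endothelial sums in every dim library and far below them in every bright library.

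Of the 10 tetraspanins, 6 were higher in every WT-bright than in every WT-dim library (Tspan7, Tspan8, Tspan12, Tspan18, Cd81 and Cd151), 2 were lower (Cd37 and Cd53) and 2 overlapped (Cd9 and Cd63). In AS mice 7 were higher, now with Cd9, the same 2 were lower and Cd63 overlapped. Groups did not overlap in 41.8% of all genes for bright over dim in WT (20.8% higher in bright) and in 62.2% in AS (32.0% higher, 30.2% lower). These levels helped choose the genes, so they are given as a description with no test.

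**Figure D2:**
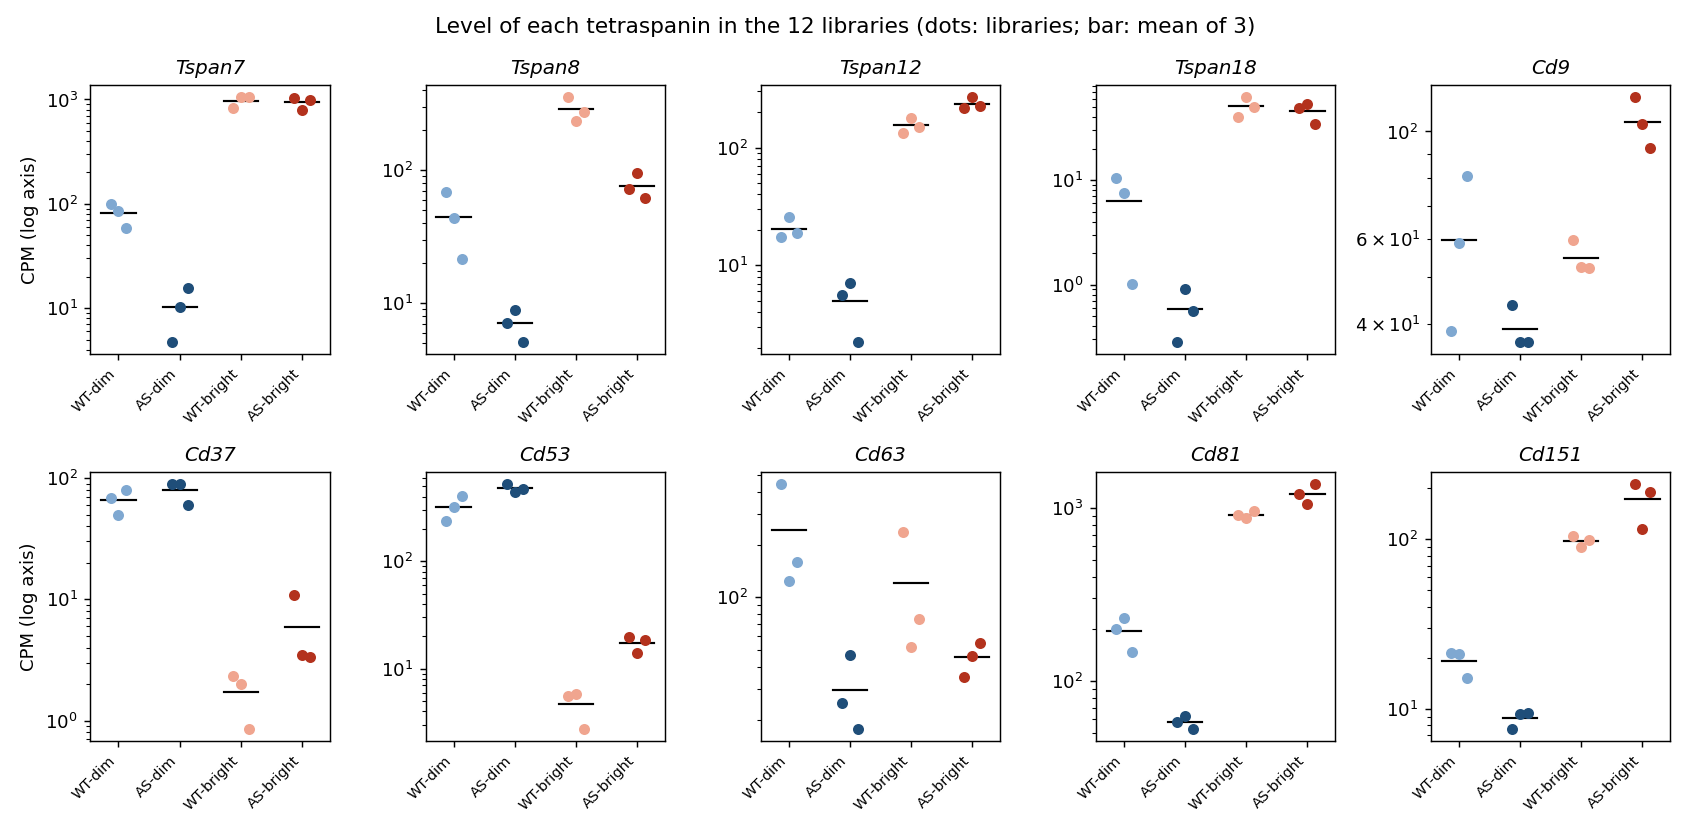
CPM (log axis) of each of the 10 tetraspanins in the 12 libraries, with 1 dot per library and a bar at the mean of the 3 libraries of each group. Tspan7, Tspan8, Tspan12, Tspan18, Cd81 and Cd151 stand higher in the bright groups, Cd37 and Cd53 in the dim groups.

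Tspan12, the co-receptor of Norrin signals, had 134, 179 and 149 CPM in the WT-bright and 17.3, 25.5 and 18.8 in the WT-dim libraries. In AS mice it had 215, 267 and 224 CPM in bright and 5.65, 7.04 and 2.23 in dim libraries. Each bright library was above each dim library, and the gap was wider in AS. The log2 fold change of bright over dim was 2.95 (standard error 0.28, 7.71-fold) in WT and 5.55 (standard error 0.33, 47.0-fold) in AS.

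Tspan18, the tetraspanin linked to ORAI1 calcium entry, had 39.8, 61.9 and 50.0 CPM in WT-bright and 10.3, 7.43 and 1.01 in WT-dim. It had 49.3, 53.6 and 34.4 CPM in AS-bright and 0.283, 0.912 and 0.559 in AS-dim, where the libraries held only 4, 11 and 7 counts. No bright library came near a dim one, and WT-dim replicate 3, with 12 counts, was nearer to the AS-dim libraries than to the other WT-dim libraries. Bright over dim was 3.07 (standard error 0.58) in WT and 6.30 (standard error 0.40) in AS on the log2 scale.

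Cd151, the partner of laminin-binding integrins, had 104, 89.8 and 99.5 CPM in WT-bright and 21.4, 20.9 and 15.2 in WT-dim. It had 212, 115 and 191 CPM in AS-bright and 7.63, 9.36 and 9.42 in AS-dim. Both AS groups lay outside the WT range, above it in bright and below it in dim. On the log2 scale bright over dim was 2.40 (standard error 0.28) in WT and 4.28 (standard error 0.28) in AS.

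Tspan7, best known from neurons, where its loss is tied to X-linked intellectual disability, had 820, 1052 and 1046 CPM in WT-bright and 99.0, 85.3 and 58.5 in WT-dim. It had 1043, 797 and 978 CPM in AS-bright and 4.73, 10.4 and 15.6 in AS-dim. The bright libraries of both genotypes shared a range, while the AS-dim libraries lay below all WT-dim libraries. Bright exceeded dim by 12.4-fold in WT (log2 3.64, standard error 0.27) and by 91.9-fold in AS (log2 6.52, standard error 0.38).

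Tspan8, a tetraspanin studied mostly in epithelia, tumours and vessel growth, had 352.5, 234 and 272 CPM in WT-bright and 68.5, 43.3 and 21.3 in WT-dim. It had 72.0, 95.5 and 61.9 CPM in AS-bright and 7.14, 8.95 and 5.11 in AS-dim. Both AS groups were below the WT group of the same brightness, with no overlap. Bright exceeded dim by 2.75 (standard error 0.41) in WT and by 3.43 (standard error 0.28) in AS on the log2 scale.

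Cd53, found on most white blood cells, had 237, 318 and 406 CPM in WT-dim and 5.63, 5.77 and 2.76 in WT-bright. It had 525, 438 and 467 CPM in AS-dim and 19.6, 13.9 and 18.6 in AS-bright. Dim libraries were above bright ones throughout, and the AS libraries were above the WT libraries within each subpopulation. Bright over dim was -6.04 (standard error 0.40, a 65.7-fold gap) in WT and -4.79 (standard error 0.21, a 27.7-fold gap) in AS.

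Cd37, a regulator of B cell and other leukocyte responses, had 68.6, 49.5 and 79.9 CPM in WT-dim and 2.34, 1.99 and 0.855 in WT-bright. It had 89.5, 89.3 and 60.3 CPM in AS-dim and 10.9, 3.46 and 3.35 in AS-bright. Its bright libraries held 13 to 149 counts, and AS-bright replicate 1 stood well above the others. Bright over dim was -5.19 (standard error 0.45) in WT and -3.78 (standard error 0.41) in AS, and without AS-bright replicate 1 the latter was -4.54.

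Cd81, a tetraspanin found on many cell types, had 913, 875 and 959 CPM in WT-bright and 201, 232 and 148 in WT-dim. It had 1207, 1048 and 1375 CPM in AS-bright and 58.1, 63.1 and 53.0 in AS-dim. Each bright library was above each dim library in both genotypes, with a log2 fold change of bright over dim of 2.29 (standard error 0.25) in WT and 4.37 (standard error 0.20) in AS.

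Cd9, a tetraspanin of platelets, egg cells and many epithelia, had 59.6, 52.4 and 52.1 CPM in WT-bright and 38.6, 58.9 and 80.9 in WT-dim, which overlapped. It had 118, 103 and 92.5 CPM in AS-bright and 43.7, 36.7 and 36.6 in AS-dim, which did not. Bright over dim was -0.07 (standard error 0.32) in WT and 1.41 (standard error 0.18) in AS.

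Cd63, a tetraspanin of late endosomes and of the storage granules of endothelial cells, had 443, 125 and 159 CPM in WT-dim and 236, 52.0 and 75.7 in WT-bright. It had 24.9, 46.7 and 17.8 CPM in AS-dim and 35.1, 46.4 and 55.2 in AS-bright. WT replicate 1 was the highest library in both subpopulations, and the same mouse had the highest proximal tubule marker sums, whose part in the Cd63 level was not tested. The bright library was below the dim one in each of the 3 WT mice. Bright over dim was -0.91 (standard error 0.63) in WT, -1.03 (standard error 0.21) with the mouse as a block, and 0.61 (standard error 0.34) in AS. In WT it was -0.17 without WT-dim replicate 1 and -1.88 without WT-bright replicate 1.

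Between genes, levels were compared as CPM per kilobase of merged exons. Cd81 was the highest member in both bright groups, at 318 ± 14.7 (SD, n = 3) in WT and 420 ± 56.8 (SD, n = 3) in AS. It was followed in WT-bright by Tspan8 (168 ± 35.5) and Tspan7 (138 ± 18.7), whose ranges overlapped. In AS-bright, Tspan7 (133 ± 18) was the second and Tspan12 (71.2 ± 8.41) the third, while Tspan8 (44.9 ± 10.1) was the sixth in an order in which Tspan12, Cd151, Cd9 and Tspan8 each overlapped with the next. Cd53 was the highest member in both dim groups, at 184 ± 48.5 in WT and 274 ± 25.5 in AS (SD, n = 3). In WT-dim it was followed by Cd81 (67.2 ± 14.7), Cd63 (65.8 ± 47.5), Cd9, Tspan8 and Cd37 with overlap between neighbours, and in AS-dim by Cd37 (22.6 ± 4.77), Cd81 (20.2 ± 1.77) and Cd9 (19.1 ± 2.0), which overlapped. Tspan18 was the lowest member in both dim groups and Cd37 in both bright groups.

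As a share of the summed CPM per kilobase of the 10 genes, Cd53 held 31.4 to 55.2% in WT-dim and 73.6 to 79.8% in AS-dim, against 0.204 to 0.455% in WT-bright and 1.09 to 1.34% in AS-bright. Cd81 held 38.6 to 42.9% in WT-bright and 49.6 to 55.2% in AS-bright, and Tspan7 14.1 to 20.4% and 15.4 to 17.6%. The share of Tspan8 was 18.9 to 25.2% in WT-bright and 4.20 to 7.64% in AS-bright. Cd53 thus made up most of the summed level of the members in AS-dim.

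The comparison of AS with WT asked how the disease alters each subpopulation. In the dim libraries 5 of 10 members fell, and none rose (Tspan7, Tspan8, Tspan12, Cd63 and Cd81, with Benjamini-Hochberg adjusted p-values of the quasi-likelihood fit of edgeR). Of all 14637 genes tested there, 8.63% passed, 6.42% lower and 2.21% higher. The median log2 fold change was -1.92 over the members and -0.02 over all genes.

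Tspan7 fell by 3.03 on the log2 scale in AS-dim (standard error 0.43, adjusted p = 0.0179, edgeR). Tspan8 fell by 2.69 (standard error 0.48, adjusted p = 0.0229, edgeR) and Tspan12 by 2.08 (standard error 0.44, adjusted p = 0.0317, edgeR), which passed in 8 of 14 alternatives. Cd63 fell by 3.07 (standard error 0.56, adjusted p = 0.0233, edgeR) and by 2.28 without WT-dim replicate 1. Cd81 fell by 1.77 (standard error 0.23, adjusted p = 0.0169, edgeR). All AS-dim libraries lay below all WT-dim libraries for these 5 genes and for Tspan18 and Cd151, and above them for Cd53, where 31.9% of all genes had groups without overlap (16.4% lower, 15.5% higher).

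Tspan18 had the lowest estimate of the members, -3.47 (standard error 0.92, adjusted p = 0.0508, edgeR), and did not pass. Without WT-dim replicate 3, the library with 12 counts, it was -3.98 (adjusted p = 0.0142, edgeR). Cd151 was at -1.16 (standard error 0.33, adjusted p = 0.0643, edgeR) and Cd9 at -0.64 (standard error 0.29, adjusted p = 0.21, edgeR). The leukocyte members did not pass, at 0.54 for Cd53 (standard error 0.21, adjusted p = 0.149, edgeR) and 0.24 for Cd37 (standard error 0.26, adjusted p = 0.609, edgeR).

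In the same dim libraries 9 of 12 endothelial markers, 3 of 5 podocyte markers, 3 of 6 proximal tubule markers and 4 of 5 tested markers of the loop, distal tubule and collecting duct fell, and 3 of 5 macrophage and monocyte markers rose, while 0 of 6 leukocyte markers passed in edgeR (4 had an unadjusted p under 0.05, and 1 passed in DESeq2). Of all genes in dim cells, 26.3% had an unadjusted p under 0.05 in edgeR, and 2213 passed in DESeq2. The part of these cell types in the member values was not tested. The dim calls rested on 2 libraries. Without AS-dim replicate 1 no gene passed (2972 had an unadjusted p under 0.05, edgeR), and without AS-dim replicate 3 only 1 gene passed (3016 unadjusted, edgeR) and no member did, with the 5 members still lower by 1.70 to 3.47 on the log2 scale in both cases.

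In the bright libraries Tspan8 alone of the members passed the test in edgeR, and it fell by 1.98 on the log2 scale (standard error 0.26, adjusted p = 0.0291, edgeR). It passed in 9 of 14 alternatives, and not with edgeR's version 3 fit or with replicate number as a block. DESeq2 passed 4 members, Tspan8, Cd9, Cd53 and Cd63, among 1078 genes that passed with it. Of all 14396 genes tested in edgeR, 0.452% passed, 0.188% higher and 0.264% lower in AS, and 21.8% had an unadjusted p under 0.05. Whichever library was left out, Tspan8 stayed lower, by 1.76 to 2.17 on the log2 scale, but no gene passed without WT-bright replicate 3 (2714 had an unadjusted p under 0.05), AS-bright replicate 1 (1813) or AS-bright replicate 3 (2336) in edgeR. Proximal tubule markers passed in 0 of 6 cases in bright cells in edgeR (5 had an unadjusted p under 0.05, and 0 passed in DESeq2), and the 6 estimates were all below 0, as were those of 6 loop, distal tubule and collecting duct markers (0 passed in edgeR, 4 had an unadjusted p under 0.05, and 2 passed in DESeq2). Their part in the Tspan8 value was not tested.

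Cd53 had an estimate of 1.80 in bright cells (standard error 0.38, adjusted p = 0.056, edgeR), which passed in 4 of 14 alternatives (adjusted p = 0.000617 with DESeq2, 0.299 at the highest), and Cd9 of 0.86 (standard error 0.21, adjusted p = 0.0727, edgeR). Cd151 was at 0.74 (standard error 0.25, adjusted p = 0.133, edgeR), Tspan12 at 0.55 (standard error 0.20, adjusted p = 0.154, edgeR) and Cd37 at 1.68 (standard error 0.63, adjusted p = 0.163, edgeR). For Cd53, Cd37, Cd9, Cd151, Tspan12 and Cd81 each AS-bright library lay above each WT-bright library, where 24.8% of all genes had groups without overlap, 15.7% with AS higher and 9.07% with AS lower. In the same libraries the summed CPM of 5 podocyte markers was 901 to 1132 in WT-bright and 1281 to 1427 in AS-bright, without overlap, and the 5 estimates were above 0 (0 passed in edgeR, 4 had an unadjusted p under 0.05, and 2 passed in DESeq2). Estimates were also above 0 for 10 of 12 endothelial markers (0 passed in edgeR and in DESeq2, 5 unadjusted) and 5 of 5 tested leukocyte markers (0 passed in edgeR and in DESeq2, 0 unadjusted). In these libraries 21.8% of all genes had an unadjusted p under 0.05 in edgeR. The part of these cell types in the member values was not tested. Cd37 was at 0.89 without AS-bright replicate 1. Cd63 was at -1.51 (standard error 0.50, adjusted p = 0.131, edgeR), and at -0.53 without WT-bright replicate 1, the library with the highest tubule marker sum. Cd81 at 0.33 (standard error 0.20, adjusted p = 0.371, edgeR), Tspan7 at -0.12 (standard error 0.21, adjusted p = 0.781, edgeR) and Tspan18 at -0.20 (standard error 0.26, adjusted p = 0.685, edgeR) had the smallest estimates.

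**Figure D3:**
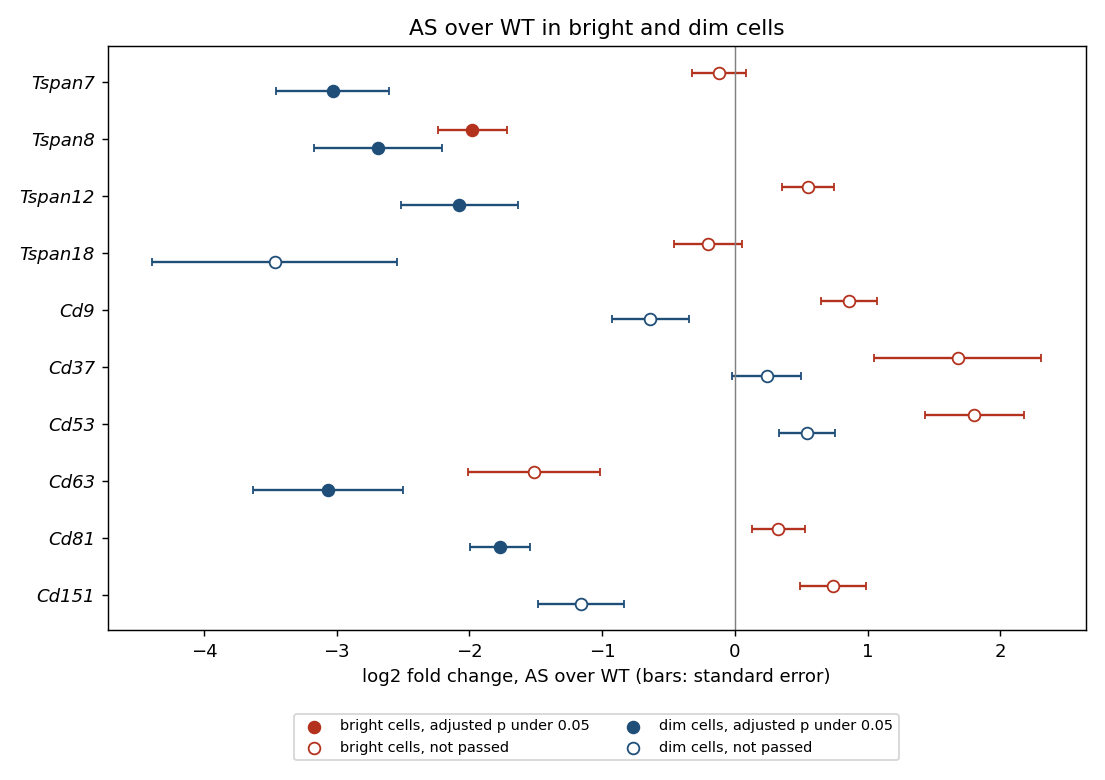
Log2 fold change of AS over WT (x axis, bars are standard errors) for each tetraspanin in bright (red) and dim (blue) cells, 3 mice per genotype, with filled dots for adjusted p under 0.05. Tspan7, Tspan12 and Cd81 are far below 0 in dim cells and near or above it in bright cells, while Tspan8 is below 0 in both.

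Whether the effect of the genotype differed between the subpopulations was tested as an interaction, AS over WT in bright minus AS over WT in dim. It passed for 5 of 10 members, all towards a higher value in bright, where 3.77% of 15084 genes passed and 2.96% in this direction. The same difference is bright over dim in AS minus bright over dim in WT, and these levels helped choose the genes. The p-values of the members are thus not independent of that choice. The difference was 2.94 for Tspan7 (standard error 0.46, adjusted p = 0.00474, edgeR), 2.66 for Tspan12 (standard error 0.43, adjusted p = 0.00519, edgeR) and 2.14 for Cd81 (standard error 0.28, adjusted p = 0.00348, edgeR). It was 1.94 for Cd151 (standard error 0.36, adjusted p = 0.0113, edgeR) and 1.54 for Cd9 (standard error 0.36, adjusted p = 0.0304, edgeR). The median of all genes was 0.13 here and -0.03 with library sizes alone. With library sizes alone Cd9 no longer passed (1.38, adjusted p = 0.0587, edgeR), and it passed in 10 of 25 alternatives, with an adjusted p of 0.00503 to 0.163.

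For Tspan8 the interaction was 0.75 (standard error 0.51, adjusted p = 0.485, edgeR), so that a difference between its falls in bright and dim cells was not shown. It did not pass for Tspan18 (3.29, standard error 0.89, adjusted p = 0.0559, edgeR), Cd53 (1.3, standard error 0.39, adjusted p = 0.085, edgeR), Cd37 (1.48, standard error 0.65, adjusted p = 0.243, edgeR) or Cd63 (1.61, standard error 0.81, adjusted p = 0.314, edgeR). With the mouse as a block, 877 instead of 569 genes passed, and Cd63 was then among them (1.76, standard error 0.40, adjusted p = 0.0315, edgeR). Without both libraries of AS replicate 1 only Tspan7 and Cd81 of the members passed, among 67 genes. Endothelial markers passed in 10 of 12 and podocyte markers in 5 of 5 cases in the same direction, and their part was not tested.

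Of 21 other tetraspanins looked up, 18 were measured in at least 1 subpopulation and 16 were tested between bright and dim cells. In WT 7 were higher and 3 lower in bright cells, where 25.3% of all genes passed (13.8% higher, 11.5% lower), and in AS 9 were higher and 4 lower, where 55.1% passed (28.6% higher, 26.5% lower). Tspan4, Tspan6, Tspan9 and Tspan15 were among the higher ones in both genotypes. Tspan9, a tetraspanin of platelets and their precursors, had 149, 275 and 133 CPM in WT-bright, 48.6, 19.9 and 13.4 in WT-dim, 465, 291 and 377 in AS-bright and 3.60, 6.96 and 3.19 in AS-dim. Its log2 fold change of bright over dim was 2.82 in WT (standard error 0.49, adjusted p = 0.00288, edgeR) and 6.36 in AS (standard error 0.33, adjusted p = 1.55e-07, edgeR). Tspan4, known from the organelles that migrating cells leave behind, was at 3.54 in WT (standard error 0.54, adjusted p = 0.00138, edgeR) and 5.20 in AS (standard error 0.44, adjusted p = 5.02e-06, edgeR). Tspan6 was at 1.82 in WT (standard error 0.49, adjusted p = 0.0244, edgeR) and 3.95 in AS (standard error 0.44, adjusted p = 3.9e-05, edgeR). Without WT-dim replicate 1 Tspan9 was at 3.50 in WT, and without AS-dim replicate 2 Tspan4 was at 6.00 in AS. Tspan6 did not pass in WT without WT-dim replicate 2, WT-bright replicate 1 or WT-bright replicate 3 (1.44 to 1.82, adjusted p = 0.0693 to 0.0832, edgeR). Tspan3 passed in AS (1.83, standard error 0.28, adjusted p = 0.000355, edgeR) and not in WT (0.29, standard error 0.37, adjusted p = 0.604, edgeR).

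Tspan15 belongs to the TspanC8 subgroup, whose members escort the protease ADAM10 and steer it to different substrates. It had 161, 207 and 169 CPM in WT-bright, 32.6, 50.5 and 23.7 in WT-dim, 474, 313 and 414 in AS-bright and 7.35, 11.9 and 9.89 in AS-dim. The bright libraries were thus above the dim ones in both genotypes, by 2.38 in WT (standard error 0.32, adjusted p = 0.000691, edgeR) and 5.36 in AS (standard error 0.26, adjusted p = 1.07e-07, edgeR). Of 5 TspanC8 genes tested, 3 were higher in bright cells in each genotype (Tspan14, Tspan15 and Tspan17), where 13.8% of all genes were higher in WT and 28.6% in AS, and Tspan33 was lower in AS. Tspan17 did not pass in WT without WT-dim replicate 3, WT-bright replicate 1 or WT-bright replicate 3 (1.66 to 1.86, adjusted p = 0.051 to 0.0575, edgeR). Adam10 itself did not pass in either (0.57 in WT, adjusted p = 0.179, and 0.35 in AS, adjusted p = 0.189, edgeR).

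The other direction held Cd82, Tspan13 and Tspan32 in both genotypes and Tspan33 in AS. Cd82, a metastasis suppressor also found on leukocytes, was at -2.88 in WT (standard error 0.34, adjusted p = 0.000327, edgeR) and -2.53 in AS (standard error 0.18, adjusted p = 1.24e-06, edgeR). Tspan13 had 707, 864 and 960 CPM in WT-dim and 196, 309 and 347 in WT-bright (-1.53, adjusted p = 0.00314, edgeR), and 1109, 1039 and 1101 in AS-dim and 199, 164 and 185 in AS-bright (-2.58, adjusted p = 6.94e-07, edgeR). Tspan33 was at -2.59 in AS (standard error 0.73, adjusted p = 0.0126, edgeR), with 1, 27 and 0 counts in AS-bright. It was at -6.48 without AS-bright replicate 2, the library with 27 counts, and at -2.09 without AS-bright replicate 1, where it did not pass (adjusted p = 0.0611, edgeR). With edgeR's version 3 fit it did not pass either (adjusted p = 0.0713). Tspan32, a tetraspanin of blood cells, had 0, 1 and 0 counts in WT-bright and was at least 33.6-fold lower there than in WT-dim, against a floor of 3 counts per library. In AS-bright it had 0, 4 and 5 counts, against 89, 161 and 63 in AS-dim.

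In AS against WT, Tspan9 (-2.62, standard error 0.59, adjusted p = 0.0364, edgeR), Tspan6 (-2.40, standard error 0.54, adjusted p = 0.0361, edgeR) and Tspan15 (-1.91, standard error 0.38, adjusted p = 0.0265, edgeR) fell in dim cells, 3 of 16 tested, where 6.42% of all genes were lower, and 0 were higher. Under 14 alternatives Tspan9 passed in 7, Tspan6 in 7 and Tspan15 in 10, and Tspan9 was at -1.90 without WT-dim replicate 1. In bright cells 0 of 15 passed in the quasi-likelihood fit of edgeR, where 5 had an unadjusted p under 0.05 and 2 passed in DESeq2. Of all genes in bright cells, 21.8% had an unadjusted p under 0.05 in edgeR, and 1078 passed in DESeq2. The interaction passed for Tspan9 (3.60, standard error 0.65, adjusted p = 0.0104, edgeR) and Tspan15 (3.04, standard error 0.41, adjusted p = 0.00357, edgeR).

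Of 14 genes for known partners of tetraspanins, 13 were tested between bright and dim cells, and 5 were higher and 2 lower in WT, 5 higher and 4 lower in AS, against 13.8% of all genes higher and 11.5% lower in WT, and 28.6% higher and 26.5% lower in AS. Fzd4, the receptor that TSPAN12 serves, had 336, 401 and 506 CPM in WT-bright, 77.9, 114 and 53.0 in WT-dim, 370, 243 and 427 in AS-bright and 10.2, 19.6 and 8.86 in AS-dim. It was higher in bright cells by 2.39 in WT (standard error 0.32, adjusted p = 0.000732, edgeR) and by 4.74 in AS (standard error 0.34, adjusted p = 1.56e-06, edgeR). It fell by 2.70 in AS-dim against WT-dim (standard error 0.41, adjusted p = 0.0197, edgeR) and was at -0.33 in bright cells (standard error 0.25, adjusted p = 0.473, edgeR). Lrp5, its co-receptor, was also higher in bright cells, by 2.29 in WT (adjusted p = 0.0142, edgeR) and 2.45 in AS (adjusted p = 7.41e-05, edgeR). Ndp, which encodes Norrin, was listed in the bright cells only, at 7 to 28 counts per library, and was not tested between bright and dim. It was at 0.25 in AS-bright against WT-bright (standard error 0.64, adjusted p = 0.858, edgeR).

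The integrin chains that CD151 binds were higher in bright cells too. Itga6 was higher by 2.07 in WT (standard error 0.25, adjusted p = 0.000354, edgeR) and 3.84 in AS (standard error 0.24, adjusted p = 5.81e-07, edgeR). Itga3 was higher by 1.98 in WT (standard error 0.35, adjusted p = 0.00323, edgeR) and 4.15 in AS (standard error 0.24, adjusted p = 3.1e-07, edgeR), and Itgb1 by 1.05 and 1.85 (adjusted p = 0.00652 and 1.04e-05, edgeR). In WT, Itgb1 passed in 13 of 14 alternatives. Itga3 fell by 1.42 and Itga6 by 1.22 in AS-dim (adjusted p = 0.0439 and 0.0296, edgeR), and of 14 alternatives Itga3 passed in 5 and Itga6 in 8.

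Orai1, the calcium channel subunit that TSPAN18 binds, was not higher in bright cells. It was at -0.63 in bright over dim in WT (standard error 0.40, adjusted p = 0.291, edgeR) and lower in bright cells by 1.22 in AS (standard error 0.22, adjusted p = 0.00107, edgeR), and Stim1, its calcium sensor, was lower by 0.77 in AS (adjusted p = 0.00642, edgeR). Stim1 passed in AS in 13 of 14 alternatives and did not pass in WT (-0.45, standard error 0.40, adjusted p = 0.441, edgeR). Cr2, which encodes a complement receptor, was at -4.49 in WT (standard error 0.65, adjusted p = 0.0011, edgeR) and -6.64 in AS (standard error 0.54, adjusted p = 2.8e-06, edgeR). Clec7a, the fungal receptor that CD37 binds, was at -6.13 in WT (standard error 0.72, adjusted p = 0.000337, edgeR) and -7.41 in AS (standard error 0.35, adjusted p = 9.5e-08, edgeR). WT-bright replicate 3 held 42 counts of Cr2 and 59 of Clec7a, against 4 to 6 in the other WT-bright libraries, and without it Cr2 was at -6.23 and Clec7a at -8.40 in WT. Without AS-bright replicate 2 Cr2 was at -7.27 in AS.

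**Figure D4:**
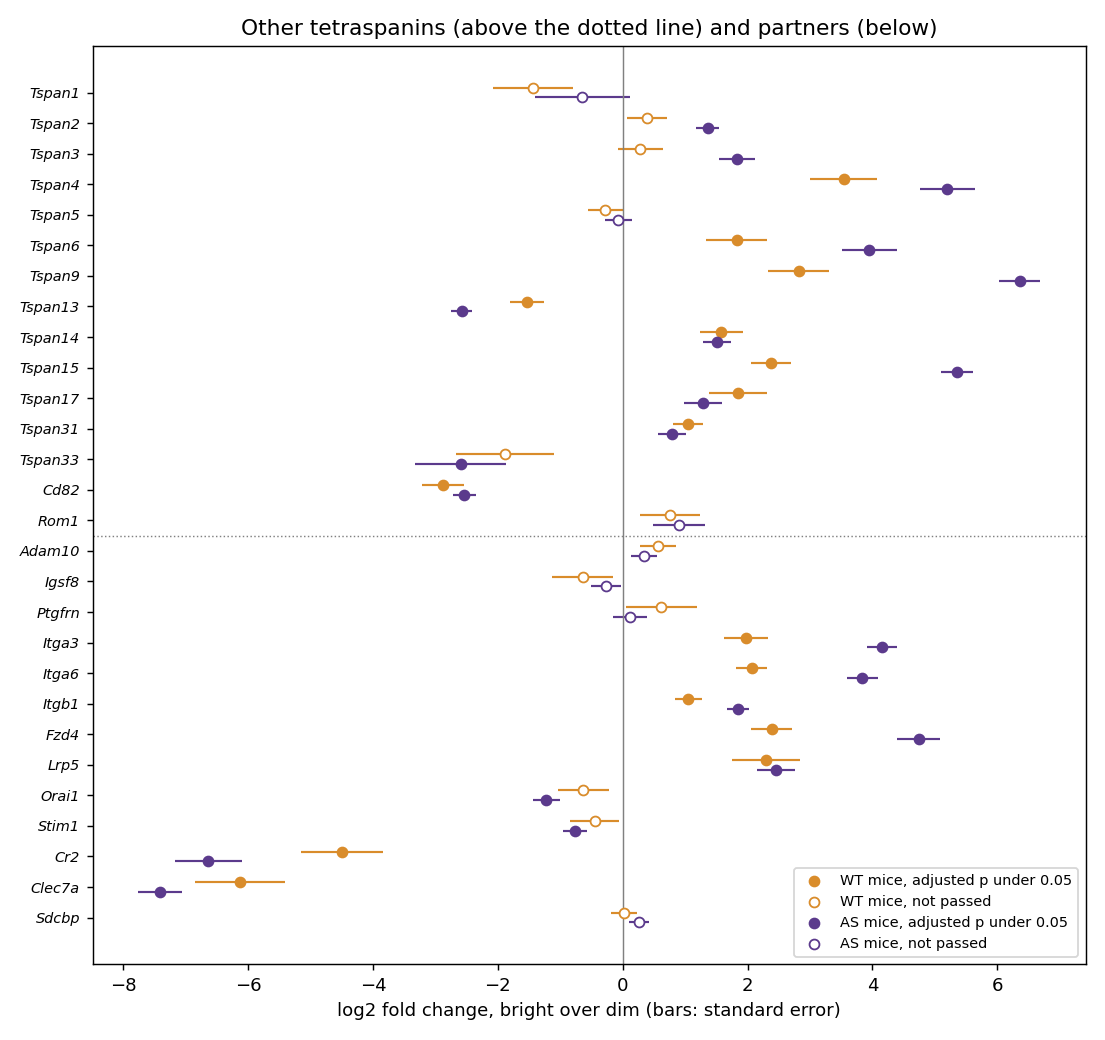
Log2 fold change of bright over dim (x axis, bars are standard errors) in WT and AS mice for the other tetraspanins, above the dotted line, and partner genes, below it. Filled dots have an adjusted p under 0.05, and Tspan32 is left out because WT-bright held at most 1 count per library. Fzd4, Itga3, Itga6, Tspan9 and Tspan15 lie right of 0 in both genotypes, and Cr2 and Clec7a lie far left.

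The genes most like a member in level over the 12 libraries were ranked by Pearson correlation of log2 CPM among 12651 genes, a description in which all points share the split of bright and dim cells. For Tspan7 they were Ntn4 (0.995), Sox17 (0.995) and Emcn (0.995), and for Tspan18 Nbea (0.995), Ces2g (0.991) and Plscr4 (0.989). For Cd53 they were B4galt5 (0.996), Fam107b (0.995) and H2-Aa (0.994), and for Cd37 Dock10 (0.986), Acap1 (0.986) and Cd53 (0.985).

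Some members share their place in the genome with another gene. The authors used a stranded library kit, but the strand counted is not given in the sources used here. On GRCm38, noncoding genes of the opposite strand overlap Tspan8 (chr10:115816832-115849893), Tspan12 (chr6:21771395-21852515), Cd9 (chr6:125460266-125494791), Cd81 (chr7:143052739-143067934) and Cd151 (chr7:141467392-141471473). The protein-coding gene Tead2 overlaps Cd37 (chr7:45233632-45239115), and a short rRNA gene of the same strand, Gm25885, lies within the span of Tspan7. Counts of these 7 genes are uncertain to that extent. No other annotated gene overlaps Tspan18 (chr2:93201760-93334505), Cd53 or Cd63 (chr10:128900989-128912822).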

How the data were processed

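Poly-A RNA of dimtdT and brighttdT GEC from 3 WT and 3 AS mice was sequenced, and per the labels the authors processed reads with FastQC 0.11.5, cutadapt, Trimmomatic and STAR 2.6.0c on GRCm38.p5 and used edgeR. The deposited values are read counts per gene (Gencode release 16), not normalized, in a table of 17811 dim and a table of 17521 bright genes, 15768 shared. The deposited RPKM were computed by the authors with a gene length that equals the summed exons of all transcripts, 1.005 to 3.589 times the merged length of the members, so that CPM was divided here by merged exon length (Gencode release 21). Fold changes and p-values of the authors in the tables were not used.

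Counts were tested with edgeR 4.0.16 in R 4.3.3 (quasi-likelihood, glmQLFit with legacy off, TMM, filterByExpr, Benjamini-Hochberg over all genes tested, threshold 0.05), with AS over WT within each table and bright over dim and the interaction on shared genes. The 92 ERCC spike-ins were left out. Printed CPM share a scale over 12 libraries and the fold changes come from each test's own scaling. Scripts were tested on simulated data. The p-values of AS over WT measure the spread between 3 mice per group. Those of bright over dim and of the interaction treat the dim and the bright library of a mouse as independent, except where the mouse is a block.

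The members, lists and tests were chosen with earlier results of these data known. Named genes are the 10 members in every comparison, up to 5 other tetraspanins and partners in each direction with the largest change among those passed at average logCPM above 1, the 3 genes most like Tspan7, Tspan18, Cd37 and Cd53, and Col4a5. 1 gene was left out of the partner and marker lists. Adam10, Orai1 in WT, Tspan14, Tspan17 and Ndp were named after their values were seen. The labels give the dim and bright library of a mouse the same mouse number. Deviations from group means correlated at 0.093 to 0.301 within WT mice and 0.106 to 0.461 within AS mice. Between a dim and a bright library of different mice they correlated at -0.245 to 0.0279 in WT and -0.347 to 0.243 in AS, where the ranges overlapped. Alternatives were DESeq2 1.42.0, RLE or plain library sizes, a likelihood ratio test, no filter, a replicate block, all libraries in 1 fit, edgeR's version 3 fit, and each library left out.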

Additional observations from a re-analysis of the deposited data

Results flagged for a closer look

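The effect of AS over WT differed between bright and dim cells, by the interaction test of edgeR's quasi-likelihood fit with Benjamini-Hochberg adjustment, for 5 of the 10 tetraspanins, where 3.77% of all genes passed. The levels in bright and dim cells helped choose these 10 genes, so the test is not independent of that choice. Endothelial markers passed it in 10 of 12 and podocyte markers in 5 of 5 cases, towards a higher value in bright, and their part was not tested. Bright minus dim was 2.94 for Tspan7, 2.66 for Tspan12, 1.54 for Cd9, 2.14 for Cd81 and 1.94 for Cd151 on the log2 scale. Cd9 passed in 10 of 25 alternatives. The same test passed for Tspan9 (3.60) and Tspan15 (3.04) among 16 other tetraspanins tested, and for Fzd4 (2.41), Itga3 (2.22) and Itga6 (1.83) among 13 partners tested. Of 25 alternatives, Tspan15 passed in 25, Tspan9 and Itga6 in 23, Itga3 in 22 and Fzd4 in 21. All 10 differences were towards a higher value in bright cells. Of all genes, 2.96% passed in this direction and 0.815% in the other.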

How the results depend on the processing

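Of 530 tested values of the 10 members under an alternative, 473 kept their direction and side of the threshold, 38 no longer passed, 19 came to pass and 0 changed sign. Of 280 values of bright over dim, given with no test, 1 moved beyond the spread between libraries (Cd37 in AS) and 1 changed sign (Cd9 in WT, -0.07, and 0.23 without WT-dim replicate 3). Between AS and WT in bright cells 65 genes passed, against 1078 with DESeq2, 897 with the likelihood ratio test, 39 with no filter, 139 with all 12 libraries in 1 fit and 0 with edgeR's version 3 fit (2906 unadjusted), and 0 to 281 with 1 library left out. In dim cells 1263 passed, against 2213 with DESeq2, 582 with the version 3 fit and 2106 with all 12 libraries, and 0 to 1825 with 1 library left out. For the interaction 569 passed, against 1184 with DESeq2 and 1092 with the likelihood ratio test, 252 to 857 with 1 library left out and 67, 245 and 110 without AS mice 1, 2 and 3 (386 to 609 without a WT mouse). The cause of these changes was not tested. Of the interactions, Tspan7 and Cd81 passed in 25 of 25 alternatives, Tspan12 in 24, Cd151 in 22 and Cd9 in 10. The version 3 fit and leaving out a mouse were chosen after seeing the data.

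A replicate block by number between AS and WT, where the mice share only a number, gave 16 genes in bright and 494 in dim cells, and Tspan8 in bright cells then had an adjusted p of 0.0534 in edgeR and Tspan12 in dim cells did not pass. With the mouse as a block, where libraries come from the same animal, the interaction passed for 877 genes, Cd63 among them. Bright over dim gave 4444 instead of 3604 genes in WT and 7755 instead of 7743 in AS. Tspan18 in AS-dim and Cd37 in WT-bright, with 4 to 11 and 13 to 37 counts, are limited by depth.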

Other observations

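Levels of members relative to the cell type markers were computed after the values had been seen. Cd53 per 1000 CPM of leukocyte markers was 32.5 to 53.0 CPM in WT-dim, 42.1 to 48.6 in AS-dim, 41.4 to 279 in WT-bright and 237 to 283 in AS-bright. Coro1a had the largest mean of these markers in each group, so that this scale rests mostly on it. The range of Cd53 relative to leukocyte markers in AS-bright lay above that of both dim groups, while AS-dim lay within WT-dim. Cd37 on this scale was 7.88 to 9.42 in WT-dim, 5.44 to 8.65 in AS-dim, 12.8 to 96.6 in WT-bright and 50.9 to 131 in AS-bright.

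Tspan7 per 1000 CPM of endothelial markers was 62.5 to 81.9 CPM in WT-dim and 63.1 to 75.8 in WT-bright, and 20.4 to 48.8 in AS-dim and 47.8 to 60.4 in AS-bright. The WT-dim and WT-bright ranges of Tspan7 overlapped on this scale, although its fitted fold change of bright over dim was 12.4-fold. Tspan8 was 28.4 to 56.6 in WT-dim, 14.1 to 32.6 in WT-bright, 16 to 30.7 in AS-dim and 3.78 to 5.72 in AS-bright, so that AS-bright lay below the other groups. Cd81 was 166 to 197 in WT-dim and 166 to 250 in AS-dim, against 52.5 to 84.4 in WT-bright and 62.8 to 85.0 in AS-bright. Tspan12 was 14.29 to 25.01 in WT-dim and 7.004 to 24.32 in AS-dim, which overlapped. So did Tspan18, at 1.346 to 8.558 and 1.216 to 2.987, and Cd63, at 91.35 to 366.6 and 55.78 to 152.9. Cd151 was higher in AS-dim, at 29.51 to 32.83 against 15.35 to 20.19 in WT-dim. Cd9 was higher in AS-dim too, at 114.8 to 188.1 against 31.91 to 107.7.

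The summed CPM of the 10 members was 965 to 1205 in WT-dim, 667 to 767 in AS-dim, 2604 to 2707 in WT-bright and 2545 to 3034 in AS-bright. The other tetraspanins summed to 1243 to 1496, 1481 to 1566, 1009 to 1508 and 1360 to 1921 CPM in the same groups.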
